A study of Homo sapiens and Mus musculus with 61 samples.

Results

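The sgHS4 libraries come from K562 cells, an established human leukaemia line of erythroid character, in which a guide RNA steered catalytically inactive Cas9 (dCas9) to HS4. HS4 is one of the 5 DNase I hypersensitive sites of the beta-globin locus control region on chromosome 11. The dCas9 carried a biotin tag, was captured on streptavidin, and the co-purified DNA was sequenced (CAPTURE-ChIP-seq). There were 2 sgHS4 libraries and 4 libraries with sgGal4, a non-targeting guide, all from K562 cells with the same tagged dCas9. The whole series has 61 samples, of which 15 were not analysed here. The members are all 10734 regions of 300 bp that the table of the first HS4 guide lists, out of 143198 rows in the 17 tables of the series, with no selection by value. The labels do not say whether replicates came from separate cultures, so p-values measure only the spread between these libraries, which may be technical. How regions were selected for a table is not given in the sources used here, so the listing itself may depend on reads in the guide libraries.

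The locus control region lies upstream of the globin genes and raises their transcription in erythroid cells. A guide RNA directs Cas9 to DNA that pairs with it and is followed by an NGG motif, the PAM. Pairing starts next to the PAM, in the stretch called the seed, and inactive Cas9 can bind, in cells, DNA that pairs with the seed alone. In the sequences below that stretch is at the 3′ end, positions are counted from 1 at the 5′ end, and the PAM follows position 20.

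The sequence of the guide is not in the sources used here. All 41 stretches of 20 bases next to NGG in the target region were therefore searched for in the listed regions outside the cluster, by their last 10 bases with NGG. One of them was found in 158 regions, 34 of them among the 40 with the highest ratio, and the next most frequent in 9 regions, 1 of them among those 40. The results below turn on the most frequent stretch. It was picked, after the read numbers were known, for its count among the 40 regions with the highest ratio. How often it occurs among high ratios is therefore no independent support. The target region, hg19 chr11:5309425-5309724 on the minus strand, is shown whole with this stretch and its PAM in capitals.
HS4 target: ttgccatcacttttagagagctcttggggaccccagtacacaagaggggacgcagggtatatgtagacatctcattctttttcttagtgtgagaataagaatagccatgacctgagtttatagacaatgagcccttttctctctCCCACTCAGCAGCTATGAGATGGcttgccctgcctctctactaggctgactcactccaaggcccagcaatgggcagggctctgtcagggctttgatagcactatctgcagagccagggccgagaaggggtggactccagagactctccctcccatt
The region with the next highest ratio, near RNF44 (hg19 chr5:175965124-175965423, plus strand), is shown in the same way, because its match is among the longest, at 16 bases.
RNF44 region: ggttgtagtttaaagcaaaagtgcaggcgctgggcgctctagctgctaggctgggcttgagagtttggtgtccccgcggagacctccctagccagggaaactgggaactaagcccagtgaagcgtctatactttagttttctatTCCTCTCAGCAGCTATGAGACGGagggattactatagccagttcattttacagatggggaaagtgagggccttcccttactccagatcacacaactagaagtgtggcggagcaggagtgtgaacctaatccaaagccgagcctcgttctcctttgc

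The matching stretches of the target and of 9 other regions are given below to show what the regions share. Capitals mark the bases that match the target without interruption when read from the PAM, and the GG of the PAM.
HS4 target: CCCACTCAGCAGCTATGAGAtGG
RNF44: tcctCTCAGCAGCTATGAGAcGG
ABCC11: acttCTCAGCAGCTATGAGAaGG
MAP1S: ccagcctAGCAGCTATGAGAgGG
ARSD: catactctGCAGCTATGAGAaGG
AFDN: ctcagcccGCAGCTATGAGAaGG
TMBIM1: gtaaccagGCAGCTATGAGAaGG
MICAL3: aggtaagccCAGCTATGAGAaGG
BSDC1: tgaagaccaCAGCTATGAGAtGG
NCAPH: gatggtgacaAGCTATGAGAgGG
All of them end in AGCTATGAGA before the PAM. The RNF44 stretch differs from the target at C1T and A4T, that of ABCC11 at C1A, C3T and A4T, and that of ARSD at C2A, C3T and A8T. The stretches near BSDC1 and NCAPH share little with the target beyond the 11 and 10 bases next to the PAM.

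The files hold log2 levels, from which whole read numbers were recovered. The listed regions held 223328 and 63340 reads in sgHS4 replicates 1 and 2, against 64476, 117004, 12603 and 12392 in sgGal4 replicates 1 to 4. sgGal4 replicates 3 and 4 stand apart by depth, with 38.6% and 36.9% of the regions at 0 reads. A log2 ratio here is the log2 of the mean linear deposited level of the 2 sgHS4 libraries over that of the 4 sgGal4 libraries. A region was called raised when its ratio was 1 or more and its limma adjusted p was below 0.05, and lowered with a ratio of -1 or below and the same p limit. The test was run on the deposited levels and again on the recovered reads scaled to library size.

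The HS4 target had the highest ratio of all listed regions, on deposited levels and on recovered reads. It held 12540 and 11786 reads in the sgHS4 libraries, against 0, 0, 2 and 1 in the sgGal4 libraries. Both sgHS4 libraries lay far above every sgGal4 library, and the groups did not overlap. The log2 ratio on deposited levels was 9.28 (SD of the sgHS4 log2 levels 1.51, n = 2), and the limma difference of mean log2 levels was 9.80 (SE 1.19). Its limma adjusted p was 0.0568 on deposited levels, which missed the limit, and 0.00169 on recovered reads, where the ratio was 10.95. Without sgGal4 replicates 3 and 4 the ratio was 11.85 with a limma adjusted p of 0.0201 on deposited levels, so the call there depends on those libraries. The size of the ratio rests on the level given to few or no reads and is not a measured multiple.

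The target took a different share of each sgHS4 library. Of all reads in listed regions it took up 5.62% in sgHS4 replicate 1 (95% Clopper-Pearson interval 5.52 to 5.71) and 18.6% in sgHS4 replicate 2 (18.3 to 18.9), so the sgHS4 libraries differed from each other beyond counting error. In sgGal4 it held 0% in replicates 1 and 2, with upper limits of 0.00572% and 0.00315% by the same interval, and 0.0159% and 0.00807% in replicates 3 and 4. These intervals and limits cover counting error only. An exact two-sided permutation test over the 6 libraries gave p = 0.133, the smallest that 2 against 4 libraries allow. The region lies in an intron of long HBE1 and HBG2 transcript models. The nearest annotated protein-coding start, that of the olfactory receptor gene OR51B4, is 13602 bp away.

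The strongest regions outside the beta-globin cluster were scattered over the genome, in introns, between genes and, near RNF44, within 1000 bp of a start. Of the 15 with the highest ratio, 14 held the 10 bases AGCTATGAGA next to NGG, the stretch having been picked among the 40 highest. The region 870 bp from the start of RNF44, a RING finger gene, held 4239 and 2255 reads with sgHS4, against 2, 5, 0 and 0 with sgGal4. The groups did not overlap there. Its log2 ratio was 8.12 (SD 1.49, n = 2), and the limma adjusted p was 0.00745 on deposited levels and 0.000251 on recovered reads. It was the 1 region called raised on deposited levels, or 0.00932% of all regions tested. That call was lost without sgHS4 replicate 1 and without sgGal4 replicate 1 or 4, with ratios between 6.72 and 8.23. The region in an intron of ABCC11, which encodes a membrane transporter (hg19, chromosome 16, 48245857 to 48246156), held 2155 and 952 reads with sgHS4, against 0, 0, 2 and 0 with sgGal4. Both sgHS4 libraries were again far above all sgGal4 libraries, and the ratio was 7.03 (limma adjusted p = 0.00292 on recovered reads and 0.111 on deposited levels). These are the 2 listed regions whose uninterrupted match reaches 16 bases.

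Next came regions with 10 to 13 matched bases. The region in an intron of MICAL3, which encodes an actin-binding monooxygenase, held 1667 and 254 reads with sgHS4 and 3, 5, 0 and 1 with sgGal4, for a ratio of 6.34. The region in an intron of MAP1S, a microtubule-associated protein gene, held 793 and 120 reads with sgHS4 and 0 in every sgGal4 library. Relative to the reads outside the cluster this was at least 239.6-fold higher, taking 3 reads over the sgGal4 group as the floor. By the same measure a region nearest the arylsulfatase gene ARSD, in an intron of ARSL, was at least 137-fold higher (434 and 88 reads with sgHS4, 0 in all sgGal4 libraries). One nearest RRM1, the large subunit gene of ribonucleotide reductase, in an intron of STIM1, was at least 111-fold higher (312 and 110 reads with sgHS4, 0 in all sgGal4 libraries). In all of these the sgHS4 libraries were clearly high and did not overlap sgGal4.

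The other members of these 14 had ratios from 4.90 to 5.64. They lay near NCAPH, a condensin subunit gene, BSDC1, PICALM, a clathrin assembly gene, RSPRY1, AFDN, which encodes the junction protein afadin, EPB41L1, DPP9, a peptidase gene, and TMBIM1. The regions of BSDC1, RSPRY1 and EPB41L1 lie in introns of these genes, the TMBIM1 region lies in an intron of PNKD, and the rest are intergenic. Over these 8 regions the sgHS4 libraries held 460 to 1520 reads in replicate 1 and 66 to 321 in replicate 2, against at most 9 in any sgGal4 library. All 14 passed the limits on recovered reads.

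**Figure D1:**
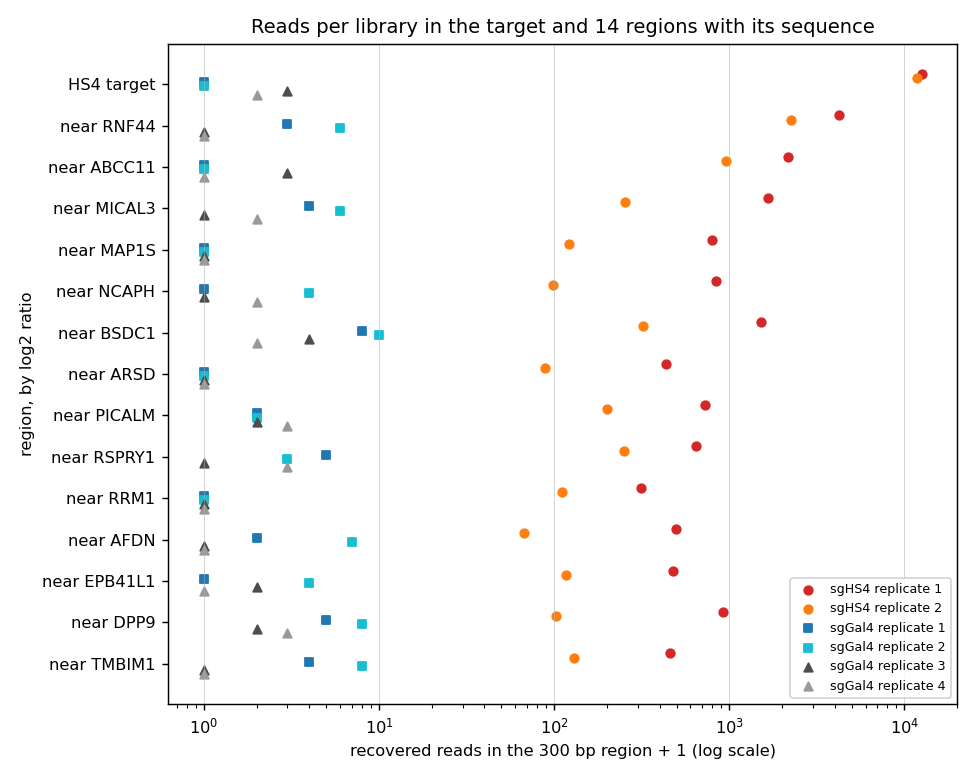
Recovered reads plus 1 (log scale) in each of the 6 libraries for the HS4 target and the 14 regions with 10 or more matched bases among the 15 highest log2 ratios outside the cluster, ordered by ratio from the top; circles are sgHS4 libraries, squares and triangles sgGal4 libraries. The sgHS4 points lie at 66 reads or more and the sgGal4 points at 9 reads or fewer.

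A stretch near GALNT9, a region described further on, has a single mismatch in the last 10 bases, at position 18. The capitals mark its matching bases among the last 10 and the GG.
GALNT9: ttctctcagcAGCTATGgGAcGG

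The median ratio was higher in regions with a longer match, in steps above 9 bases. Among the 10421 regions with 0 to 6 matched bases next to NGG the median log2 ratio was 0.22, and 1128 of them had a ratio of at least 1, a level that 12.6% of all regions reached. The median was 1.22 with 7 matched bases (77 regions), 1.15 with 8 (44 regions) and 1.17 with 9 (33 regions), so these 3 lengths lay close together. The median was 1.68 with 10 bases (84 regions), 2.70 with 11 (58 regions), 4.30 with 12 to 14 (14 regions) and 7.58 with 16 (2 regions). Of the hg19 sites with 8 and 9 bases only 1.43% and 5.51% lay in listed regions, against 90.9% with 11. The medians of short matches thus describe the listed sites alone. The median reads in the regions with 11 matched bases were 72 and 25 with sgHS4, against 0, 1, 0 and 0 with sgGal4. With 12 to 14 they were 258 and 69.5 with sgHS4, against 0 in every sgGal4 library.

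**Figure D2:**
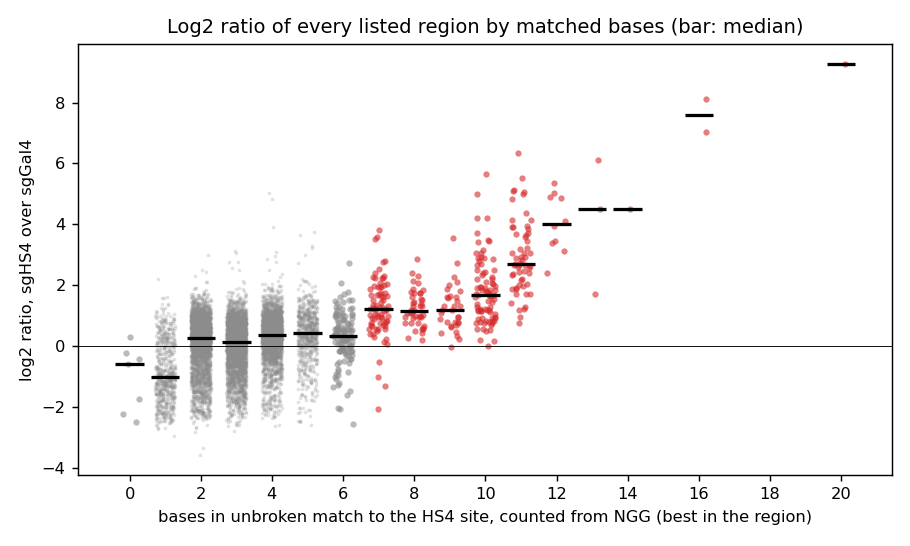
Log2 ratio of sgHS4 over sgGal4 on deposited levels (vertical axis) for each of the 10734 regions, by the longest uninterrupted match to the HS4 stretch counted from NGG (horizontal axis); bars are medians, grey points have fewer than 7 matched bases. The median is 1.68 at 10 bases and 2.70 at 11, and the single region with 20 bases is the target.

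Outside the target, 158 regions held a match of 10 or more bases, which is 1.47% of the regions outside the cluster. Of the 40 regions with the highest ratio, 34 did, which is the count by which the stretch was picked. The median ratio of the 158 was 2.29, against 0.25 over all regions, and 135 of the 158 had a ratio of at least 1. On recovered reads 56 of them (35.4%) were called raised and 0 lowered, where 1.65% of all regions were raised and 0.168% lowered. Of the 56, 25 had 0 reads in every sgGal4 library, as did 140 of the 177 regions raised over the whole list. Those calls rest on the level given to 0 reads. With 10 matched bases 20 of 84 regions were raised, with 11 it was 22 of 58, with 12 to 14 it was 12 of 14, and with 16 both. In 114 of the 158, both sgHS4 libraries had a deposited level above all 4 sgGal4 libraries, where 16.1% of all regions did. In 27 of them every sgGal4 library was at 0 reads, and their ratio depends on the level given to 0 reads. The lowest ratio of the 158, about 0, belonged to a region near STK3 with 18 and 4 reads in sgHS4 and 3, 2, 3 and 3 in sgGal4 (ratio -0.00118), chosen here after its value was seen. The count of 56 depends on the libraries. It was 34 and 36 without sgHS4 replicate 1 or 2, 22, 16, 27 and 33 without sgGal4 replicate 1, 2, 3 or 4, and 106 without both sgGal4 replicates 3 and 4. Without a variance trend it was 17.

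The uninterrupted match and the mismatches over all 20 bases can be set side by side. Over the 158 regions Spearman's rho of the ratio was 0.563 with the number of uninterrupted matched bases and -0.314 with the number of mismatches over all 20 bases. It was 0.415 with matched bases when regions with exactly 10 were left out. The points share the same 6 libraries, and the values are a description. With 11 matched bases the median ratio was 2.74 in the 20 regions with 4 to 6 mismatches over the 20 bases and 2.68 in the 38 with 7 to 9. With 10 matched bases it was 2.16 in the 20 regions with 6 or fewer mismatches and 1.57 in the 64 with 7 or more.

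Where the mismatches lie can be seen in the regions whose closest stretch next to NGG has few of them. Besides the target, 2 regions had a stretch with 2 mismatches over the 20 bases. They are the one near RNF44, with C1T and A4T, and one in an intron of TLL2, a metalloproteinase gene, with G12A and C13A. The TLL2 stretch is shown with the bases that match without interruption next to the PAM, and the GG, in capitals.
TLL2: cccactcagcaaaTATGAGAtGG
The TLL2 region held 20 and 3 reads with sgHS4, against 0, 0, 1 and 1 with sgGal4. These reads were few, and on deposited levels the groups overlapped. Its ratio was 0.83, and it did not pass (limma adjusted p = 0.694 on recovered reads), where the RNF44 region had a ratio of 8.12. With 3 mismatches, both regions, near ABCC11 and ARSD, had all of them in the first 10 bases, and their ratios were 7.03 and 5.36. With 4 mismatches, the 5 regions with all of them in the first 10 bases had ratios from 2.68 to 6.11, and 3 were raised on recovered reads. The 5 with 1 of the 4 in the last 10 bases had ratios from 1.04 to 2.51, and 2 were raised. The TLL2 region was named after its value was seen.

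The genome was also searched the other way round. Of the 243 sites in hg19 with exactly 10 matched bases next to NGG, 84 (34.6%) lay in a listed region. Of those with 11 it was 60 of 66 (90.9%), and of those with 12 to 14 it was 14 of 14. Both sites with 16 bases and the 1 site with 20, the target, were listed. With 8 bases 44 of 3076 sites (1.43%) were listed, and with 9 it was 33 of 599 (5.51%). The 6 sites with 11 bases outside the listed regions lie nearest NRAP, C12orf50, IQCJ-SCHIP1, TMEM65, MAGEA9 and MAGEA9B. The last 2 are copies of each other, 100% identical over the 299 bases compared around the site. Why these 6 are not listed was not tested.

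**Figure D3:**
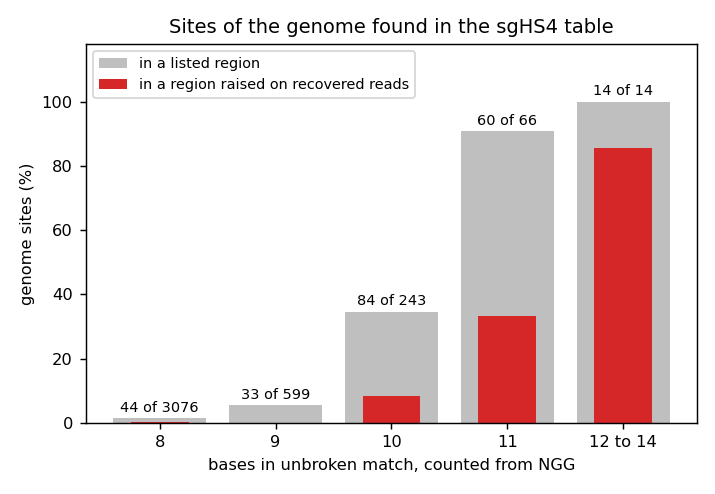
Share of the sites in hg19 with a given uninterrupted match next to NGG that lie in a listed region (grey, numbers above the bars) and in a region called raised on recovered reads (red). The grey share is 1.43% at 8 bases and 90.9% at 11.

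The matched bases lay near the middle of the regions. Of the 158 regions, 152 (96.2%) had the centre of the matched 23 bases, the stretch with its PAM, within 50 bp of the centre of the region, at a median distance of 13.5 bp. Of the regions with a best match of 5 or 6 bases it was 407 of 826 (49.3%), at a median distance of 51.0 bp. The target's own stretch lay 5.5 bp from the centre.

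**Figure D4:**
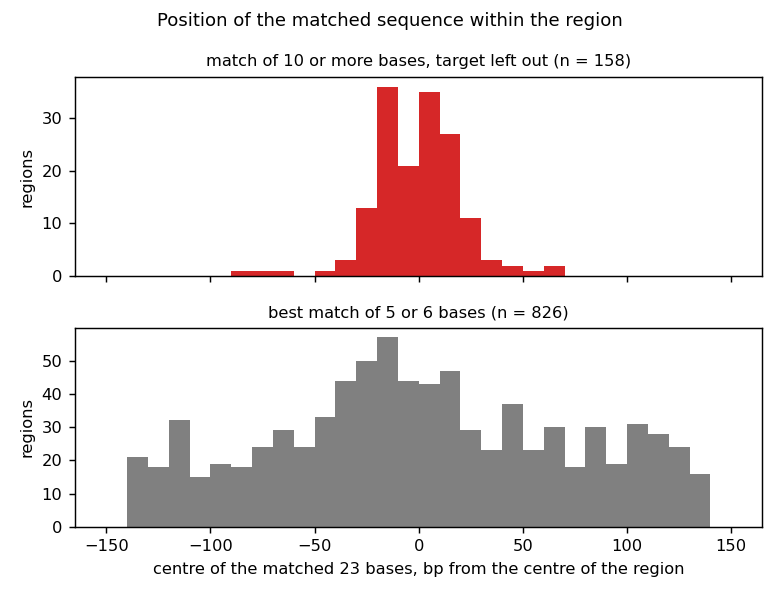
Number of regions by the distance in bp from the centre of the region to the centre of the matched 23 bases, for the 158 regions with 10 or more matched bases (top) and the 826 with 5 or 6 (bottom). The top distribution is gathered around 0, with 96.2% within 50 bp, against 49.3% in the bottom one.

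By place in the genome, the 158 regions were 80 in introns, 68 intergenic, 6 in exons and 4 at promoters, meaning within 1000 bp of a protein-coding start. Promoters made up 2.53% of them, against 40.9% of all listed regions. In hg19 itself few of the sites lie at promoters. It is 1 of the 243 sites with 10 matched bases, 2 of the 66 with 11 and 1 of the 16 with 12 to 19. All of these promoter sites are listed, so the low share is no sign that promoter sites were missed. The median ratio was similar by place, at 2.36 in introns, 2.08 between genes, 2.42 in exons and 2.85 at promoters. Genes named here are those nearest to or overlapping a region and were not themselves measured.

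The authors' deposited table tags 8 regions as off-target for this guide, with log2 ratios from 1.86 to 7.03. Of these 8, 5 held 10 or more matched bases (ABCC11, MAP1S, AFDN, MCTP2 and SNX29) and the other 3 lay near GALNT9, ADRA1D and KIF26B. The GALNT9 stretch differs from the target at C1T, C2T, A4T and A18G. The ADRA1D stretch differs at C2T, C5T, A8T and G12A. The KIF26B stretch matches all 10 last bases but is followed by NAG, not NGG, and differs at C1T, C5A, T6A and G9A. Every tagged region in the authors' deposited table thus holds a stretch with 3 or 4 mismatches over the 20 bases.

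The tagged regions were not all strongly covered. ADRA1D, an adrenergic receptor gene, had 72 and 5 reads in its region with sgHS4 and 1, 7, 0 and 2 with sgGal4, so that the groups overlapped (limma adjusted p = 0.440 on recovered reads). The KIF26B region had 40 and 23 reads with sgHS4 and 2, 6, 0 and 0 with sgGal4 (limma adjusted p = 0.160 on recovered reads), without overlap. MCTP2 had 38 and 67 reads with sgHS4 and 0, 0, 1 and 0 with sgGal4, and SNX29, a sorting nexin gene, 66 and 8 with sgHS4 and 0, 2, 0 and 0 with sgGal4. Neither passed on recovered reads. The GALNT9 region, in a glycosyltransferase gene, had 51 and 6 reads with sgHS4 and 0 in all sgGal4 libraries, at least 14.96-fold higher, and was called raised (limma adjusted p = 0.0276 on recovered reads). In all, 4 of the 8 passed on recovered reads and 0 on deposited levels. Without a tag are 7 other regions with 4 or fewer mismatches next to NGG, among them those near RNF44, TLL2 and ARSD. Of the regions without a tag, 182 had a ratio above the lowest tagged one, and 92 of those held 10 or more matched bases.

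Regions with a shorter or broken match had lower medians. The 154 regions with 7 to 9 matched bases had a median ratio of 1.19, and 12 were raised on recovered reads (7.79%). Of these 12, 11 had 0 reads in every sgGal4 library, and their median was 16 and 7 reads with sgHS4. A further 94 regions had 1 mismatch within the last 10 bases and fewer than 7 bases uninterrupted. Their median ratio was 1.25, and 14 of them were raised (14.9%). Of these 14, 11 had 0 reads in every sgGal4 library, and their median was 43.5 and 8 reads with sgHS4. Most calls in both sets thus rest on the level given to 0 reads. By position of that mismatch, the median was 1.13 at positions 14 and 16, 1.07 at position 15, 1.43 at 17, 1.17 at 18, 1.29 at 19 and 1.33 at 20, over 4 to 22 regions each, with no clear order. One of them lay at the start of PLIN5, a lipid droplet protein gene, with 576 and 40 reads with sgHS4 and 1 in each sgGal4 library; it was named after its value was seen. The mismatch there is at position 17.

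The remaining raised regions had few reads. Of the 177 regions raised on recovered reads, 94 held none of these sequences, 0.910% of the 10327 listed regions without them. Of these 94, 64 lay at promoters (68.1%, against 42.3% of all regions without these sequences), and 93 had 0 reads in every sgGal4 library. Their median was 15 and 3 reads with sgHS4 and 0 in each sgGal4 library, so their call rests on small numbers and on the level given to 0 reads. Promoter regions without a match had a median ratio of 0.49 over 4367 regions, against -0.28 in introns and -0.10 between genes, and 1.47% of the promoter regions, 0.627% of those in introns and 0.452% of those between genes were raised. Median reads at these promoters were 20 and 3 with sgHS4 and 3, 7, 1 and 1 with sgGal4. In introns they were 11 and 3 with sgHS4 and 7, 13, 1 and 1 with sgGal4, and between genes 13 and 3, against 7, 12, 1 and 1. In sgHS4 replicate 2 the median reads were thus the same in these places, and only replicate 1 had more at promoters. The count of 177 was 18 to 272 with 1 library left out, lowest without sgGal4 replicate 2 and highest without sgHS4 replicate 2. The 18 lowered regions held no match, and 7 lay in introns, 11 between genes and 0 at promoters. Their median was 1 and 0.5 reads with sgHS4, against 12, 19.5, 3 and 2.5 with sgGal4. On deposited levels 0 regions were lowered by limma. Of the 10734 regions, 1092 had an unadjusted limma p below 0.05 with a ratio of -1 or below. With a ratio of 1 or more it was 582.

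The 5 lowest ratios belonged to regions near SKOR1, ZNF10, NADK2, SS18 and GJE1, from -3.59 to -2.78. SKOR1 had 5 and 3 reads with sgHS4 and 6, 5, 129 and 26 with sgGal4, so the low ratio there comes with high reads in sgGal4 replicates 3 and 4, and without these libraries it was 0.08. NADK2 had 0 reads in both sgHS4 libraries and 17, 34, 3 and 2 with sgGal4, and it was lowered on recovered reads (limma adjusted p = 0.0246). SS18 had 0 reads in both with sgHS4 and 14, 27, 3 and 2 with sgGal4, with the same adjusted p on recovered reads. GJE1 had 0 reads in both with sgHS4 and 2, 19, 4 and 5 with sgGal4, and ZNF10, a zinc finger repressor gene, 1 and 1 with sgHS4 and 4, 2, 53 and 4 with sgGal4. Neither passed. All 5 are listed in each of the other 16 tables, whose ratios use the same sgGal4 libraries. The ratios there ran from -4.43 to -1.62 at NADK2, -4.28 to -1.10 at SS18 and -4.26 to -1.13 at GJE1. They ran from -5.93 to -0.35 at ZNF10 and from -5.59 to 0.32 at SKOR1. Low ratios at NADK2, SS18, GJE1 and ZNF10 are thus shared by all these guides and not particular to sgHS4.

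Beside the target, 4 regions of the beta-globin cluster are listed, and none was called. The region at HS2, in the HBE1 models and 7.6 kb from the target, had 20 and 12 reads with sgHS4 and 0, 3, 0 and 0 with sgGal4, without overlap. Its ratio was 1.88 (limma adjusted p = 0.125 on recovered reads), and it did not pass. At HBD, the delta-globin gene, there were 53 and 1 reads with sgHS4 and 4, 1, 0 and 1 with sgGal4, and the ratio of 1.54 rests on sgHS4 replicate 1, since it was -0.02 without it. Near HBG1, a gamma-globin gene, there were 0 and 3 reads with sgHS4 and 7, 14, 0 and 2 with sgGal4, a ratio of -0.97. The region at 3'HS1, nearest OR51V1, had 19 and 2 reads with sgHS4 and 6, 8, 1 and 2 with sgGal4, a ratio of -0.05 that changes sign with the libraries used. The groups overlapped at HBD, HBG1 and OR51V1. No call was made in either fit, and a few reads decide each value.

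Genes of the erythroid system and of chromatin factors showed no called region. Of the 15 erythroid regulators 7 had a region within 10000 bp of a start, with 8 regions and a median ratio of 0.42, from -1.19 near GATA2 to 1.16 near KLF1. The 5 regions near genes of the gamma-globin repressor complexes had a median of 0.86, with the highest, 1.42, near the chromatin remodeller gene CHD4. The 6 near SWI/SNF genes had a median of 0.74, the 4 near architectural and cohesin genes 0.94, and the 2 near alpha-globin genes 0.87. In each list 0 regions were raised or lowered by limma on deposited levels or on recovered reads. Over all regions 1.65% were raised and 0.168% lowered on recovered reads, and 0.00932% raised on deposited levels, so with 1 to 8 regions a list these counts say nothing particular about the genes. The median over all regions was 0.25.

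The other tables show whether the same sequence is listed with other guides. The tables were normalised separately and share the sgGal4 libraries, so values are given side by side and were not tested. No region held AGCTATGAGA next to NGG in 14 of the other 16 tables. The table of the pool sgHS1-5, with guides to all 5 hypersensitive sites, listed 7, with a median ratio of 1.39, and that of sgHS5 listed 1, at 0.0093. The RNF44 region had a ratio of 8.12 in the sgHS4 table and 3.89 in that of the pool, where its libraries held between 3 and 329 reads. ABCC11 had 7.03 in the sgHS4 table and 2.33 in that of the pool, and MICAL3 6.34 and 2.15. In the table of the second HS4 guide, sgHS4-sg2, 0 of 6242 regions held the sequence. Its target region (hg19, chromosome 11, 5309258 to 5309557) begins 167 bp before that of sgHS4, overlaps it by 133 bp and stops short of the most frequent stretch. It had a log2 ratio of 6.28 there, with 240 to 1128 reads in its 2 libraries.

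The balance between target and other regions differed between the sgHS4 libraries. The 158 regions with 10 or more matched bases held 11.97% of these reads in sgHS4 replicate 1 and 12.6% in replicate 2, against 0.268%, 0.315%, 0.770% and 0.855% in sgGal4 replicates 1 to 4. The sgHS4 shares were far above those of sgGal4 (exact two-sided permutation p = 0.133, the smallest possible here). They were close to each other with all listed regions as the denominator, which include the target. Of the reads outside the cluster they were 12.7% and 15.4%, so the closeness depends on the denominator. The stretch that defines these regions was picked from the same ratios, so the test is no independent support. Relative to the target's own reads, however, the same regions held 213% in sgHS4 replicate 1 and 67.5% in replicate 2. The RNF44 region held 33.8% and 19.1% of the target's reads. By match length, the sum relative to the target was 1.87 times higher in replicate 1 than in replicate 2 for 16 matched bases, 3.85 times for 12 to 14, 3.63 times for 11 and 5.11 times for 10. The part that the unequal depth of these libraries plays in this was not tested.

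**Figure D5:**
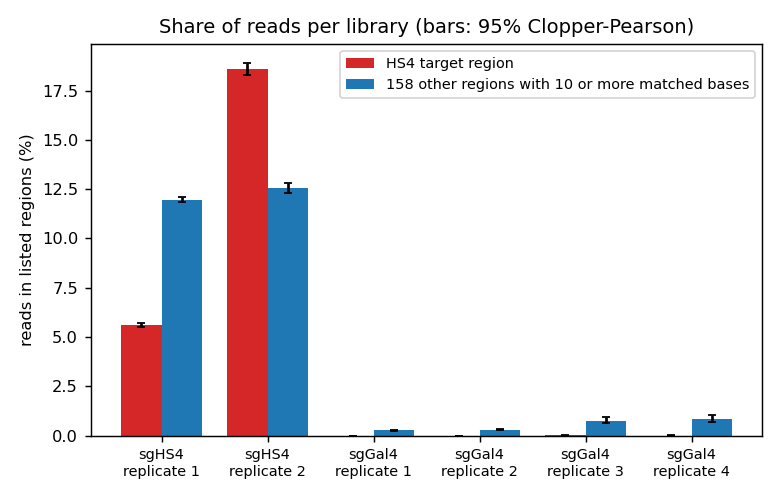
Share of the reads in listed regions, in percent, held by the HS4 target (red) and by the 158 other regions with 10 or more matched bases (blue) in each library; error bars are 95% Clopper-Pearson intervals. The blue bars are 11.97% and 12.6% in the sgHS4 libraries and below 1% in sgGal4, while the red bars are 5.62% and 18.6% in sgHS4.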

How the data were processed

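Chromatin pulled down with biotinylated dCas9 was sequenced. Bowtie 1.0.0 was used with the hg19 genome, as was Picard, per the submitters' processing notes; only uniquely placed reads were kept, per the labels' protocols. How regions were called and levels normalised is not given in the sources used here. The authors deposited log2 levels per library for 300 bp regions, together with their own log2 ratio, which differed from the recomputed ratio by at most 3.03e-09. Within each column the levels form a line in log2 of whole numbers (slopes 0.640 to 1), and 100% of values came out whole within 0.01 or 0.01%; the whole number less 1 was taken as reads. The level of 0 reads differs between libraries, from 0 to 3.55.

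limma 3.58.1 in R 4.3.3 was fitted to the deposited log2 levels without a variance trend, and to scaled recovered reads (sum outside the cluster, pseudocount 1, variance trend), with Benjamini-Hochberg adjustment over 10734 regions. Both were tested on simulated data of an assumed spread, with 200 regions raised. Both fits recovered 0% of regions raised 2-fold and 65% of those raised 8-fold. At 32-fold it was 98.5% on reads and 100% on levels. A missing call therefore does not show that a region is unchanged. Groups came from sample titles. Sequence searches used GRCh37, whose coordinates are those of hg19, and both strands; GENCODE 44 lifted to GRCh37 gave protein-coding genes. Starts are counted from 1.

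Named regions are the target, the others in the cluster, those outside it with p of at most 1e-05 in either fit, the 15 highest and 5 lowest ratios and all tagged ones; 1 of these regions is not reported here. Regions and gene lists were chosen with earlier results of these data known. Alternatives were other pseudocounts, scalings, variance models, filters and each library left out.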

Additional observations from a re-analysis of the deposited data

How the results depend on the processing

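On deposited levels, 1 region was raised and 0 lowered by limma. The count was 1130 raised and 42 lowered with the replicate block, 1043 and 17 without both shallow sgGal4 libraries, 41 raised with median centring, 36 with a mean of at least 5 reads, and 94 raised and 9 lowered with a variance trend. With single libraries left out it ranged from 0 to 59 raised and from 0 to 1010 lowered, the extremes without sgHS4 replicate 2, which leaves 1 sgHS4 library, assumed to vary like sgGal4.

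On recovered reads, 177 were raised and 18 lowered. The counts were 751 and 1621 with the replicate block, 267 and 430 without both shallow sgGal4 libraries, 238 and 10 with median centring, 68 and 9 with a mean of at least 5 reads, 21 and 0 without a trend, 181 and 10 with a pseudocount of 0.5, 67 and 2 with a pseudocount of 5, 193 and 4 with upper quartile scaling, which moves the median ratio to 0.26 against -0.06, and 167 and 30 with all regions in the scaling. With single libraries left out they ranged from 18 to 272 raised, lowest without sgGal4 replicate 2, and from 0 to 43 lowered. With fewer sgGal4 libraries there are fewer samples in the test.

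Among the 158 regions with 10 or more matched bases, settings chosen after seeing the data gave 130 raised with the replicate block, 106 without the shallow sgGal4 libraries and 17 without a trend, and between 16 and 36 with 1 library left out, against 56. Those with a ratio of at least 1 numbered 122 to 148 with 1 library left out, against 135.

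The target's ratio was 11.53 with the replicate block (limma adjusted p = 0.00140), 11.85 without the shallow sgGal4 libraries (0.0201), 9.33 with median centring (0.00276), 9.28 with a mean of at least 5 reads (0.00973) or with a trend (5.1e-08), and 10.95 and 10.18 on recovered reads with pseudocounts of 1 and 5. With 1 library left out it ranged from 7.85 to 9.99, with limma adjusted p from 0.0153 to 0.834. With regions outside the cluster as the denominator its share was 5.95% and 22.9% in sgHS4 replicates 1 and 2. The replicate numbers do not pair the samples (correlation of deviations -0.21 for number 1 and 0.19 for number 2), so the block has no basis in the design.

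Of 434 values of 29 other named regions under alternatives, 269 kept direction and call, 154 became called, 3 lost the call and 8 changed sign. They were set against the main fit on deposited levels, where RNF44 was the 1 region called. No other region could therefore lose a call. The numbers do not show how well calls on recovered reads held. Those fell from 177 raised to 18 without sgGal4 replicate 2. The sign changes were OR51V1 with the replicate block (0.44), without sgHS4 replicate 2 (0.18), without sgGal4 replicate 3 (0.00059) or 4 (0.21), without both shallow libraries (0.45) and as a difference of mean log2 levels (0.011), within -0.31 to 0.21 with 1 library left out, HBD without sgHS4 replicate 1 (-0.023, and at most 2.28 with 1 library left out), and SKOR1 without both shallow libraries (0.083). The causes were not tested. sgGal4 replicates 3 and 4 held 12603 and 12392 reads in the listed regions, and the effect of this depth on detection was not tested.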

Other observations

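The first base of the PAM differed among the 158 regions with 10 or more matched bases. It was A in 64 regions, with a median log2 ratio of 2.04 and 29 raised on recovered reads. It was G in 42 regions (2.33, 14 raised), T in 46 (2.20, 9 raised) and C in 6 (3.60, 4 raised), among them RNF44. Over all listed regions 1.65% were raised. A further 4 regions held the 10 bases next to NAG and no NGG match of 7 or more bases, with a median ratio of 1.53 and the highest, 2.30, near KIF26B, and 0 of them were raised on recovered reads.

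Among the raised regions with none of these sequences, the highest ratio, 3.64, was that of an intergenic region 22972 bp from the start of PPM1D, a phosphatase gene (130 and 29 reads with sgHS4 and 0, 3, 0 and 0 with sgGal4; limma adjusted p = 0.0371 on recovered reads). It was named after its value was seen.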
